A study of Homo sapiens with 5 samples.

Results

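Keratin 17 (KRT17) and 9 other intermediate filament genes, KRT5, KRT7, KRT8, KRT14, KRT18, KRT19, VIM, LMNA and NES, were followed across 5 RNA-seq libraries of HT1080 cells, a human fibrosarcoma line. These 10 genes, of 27189 listed in each library, were chosen by name. KRT17 had been picked for its values in these same libraries, so its pattern is described and nothing is supported with it. HT1080 cells at passages 15 to 18 were embedded in type I collagen at 2 mg/ml and incubated for 24 h. The condition labelled LD held 10 cells per cubic mm with no cytokine added. IL-6, IL-8 and RM were the same density with recombinant IL-6 alone, recombinant IL-8 alone, or IL-6 and IL-8 together at a ratio of 5 to 2. HD held 50 cells per cubic mm with no cytokine added. The study sequenced these conditions to ask how crowding and the cytokines change the transcriptome, and each condition was 1 library from a single experiment, so none of the differences below has a replicate check.

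Intermediate filaments are the rope-like part of the cytoskeleton that resists stretch, and unlike actin they differ from one cell type to the next. Vimentin fills the cytoplasm of mesenchymal cells and is widely used as a marker of migratory cells, lamin A/C lines the inner face of the nuclear envelope, and nestin marks progenitor cells. Keratins are the filaments of epithelia and assemble only as pairs of 1 type I and 1 type II chain: KRT18 with KRT8 in simple epithelia, KRT14 with KRT5 in basal layers, and KRT17, best known from wounded and stressed skin, usually with a type II chain such as KRT5 or KRT6.

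The libraries were not equal. Between 5096134 and 7118545 reads were counted in the 4 low density libraries and 926376 in HD. One entry for ribosomal RNA, RNA5-8S5, accounted for 76.9 to 79.6% of them at low density and for 51.5% at HD. HD stood apart also in breadth, with at least 1 read on 74.0% of the listed genes against 49.5 to 55.5%, and markers of unrelated lineages summed to 85 reads in HD, over 9 of 11 listed genes and led by PTPRC with 36, against 3 to 8 reads elsewhere. Values are therefore given on more than one scale. TPM (transcripts per 1000000, corrected for transcript length and rescaled to that sum) compares genes, CPM (reads per 1000000 counted) carries counting intervals, and shares of reads within a library need no scaling. A fold of HD over another library on the CPM scale is given with RNA5-8S5 counted and left out, since the choice moves every such fold in the same way. A gene with 3 reads would have 0.421 CPM in LD and 3.24 CPM in HD, which is the level under which nothing could be read.

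The cell labels were checked first. The label of the source calls the cells epithelial and the label of the cell type calls them fibrosarcoma-derived. Of 11 mesenchymal markers, 10 or 11 had reads in each library, with a summed level of 522 to 696 TPM at low density and 203 TPM in HD. Of 12 epithelial and basal keratinocyte markers, EPCAM and ESRP1 were at 0 reads in all 4 low density libraries, and 1 gene, the laminin chain LAMB3, made up most of the 1100 to 1951 summed reads there. In RM, where KRT17 was high, the adhesion molecule CDH1 had 6 reads, the basal regulator TP63 had 0, the stratifin gene SFN had 1 and the desmoglein DSG3 had 3. The others of the list in RM were LAMB3 with 1255 reads, PERP 25, ITGB4 9, COL17A1 5, GRHL2 3 and IVL 0. In HD all 12 of these markers had reads, 179 in sum, led by GRHL2 with 48. The summed level of the epithelial list was 239 to 461 TPM at low density. In HD it was 289 TPM, above that of the mesenchymal markers. The part of the epithelial markers in the HD values was not tested.

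KRT17 was almost absent from 3 libraries and clear in the other two. It had 2 reads in LD, 2 with IL-6 and 4 with IL-8, against 165 in RM and 34 at HD. Per transcript length this was 0.940, 1.37 and 2.52 TPM, against 80.2 TPM in RM and 139 TPM at HD. Neither cytokine alone brought KRT17 past 4 reads, and the libraries labelled RM and HD did not overlap with the other 3 on any scale tried. In RM its level exceeded that of 95.4% of all listed genes, and in HD of 97.0%.

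The CPM of KRT17 was 0.281 in LD (95% Wilson interval 0.0770 to 1.02), 0.392 with IL-6 (0.108 to 1.43) and 0.728 with IL-8 (0.283 to 1.87). The RM library had 24.1 CPM (20.7 to 28.1) and the HD library 36.7 CPM (26.3 to 51.3). Wilson intervals and the exact intervals of ratios below cover the sampling of reads only. RM was 85.9-fold above LD (95% conditional exact interval 23.4 to 715), 61.5-fold above IL-6 (16.8 to 512) and 33.1-fold above IL-8 (12.7 to 123). These wide intervals reflect the 2 to 4 reads in the denominators.

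The order of RM and HD depended on the ribosomal entry. HD was 1.52-fold above RM in CPM (95% conditional exact interval 1.02 to 2.21) and 0.657-fold (0.440 to 0.955) once RNA5-8S5 was left out of the totals. On the log2(TPM + 1) scale the difference of HD minus RM was 0.79, with −0.37 under median-ratio scaling. Which of the 2 libraries held more KRT17 was therefore not settled by these data. Reads per TPM, which follow the transcript length that the quantification used, were 0.724 of those of VIM for KRT17 in RM and 0.491 at HD, so its TPM in HD also rests on a shorter assigned length.

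**Figure D1:**
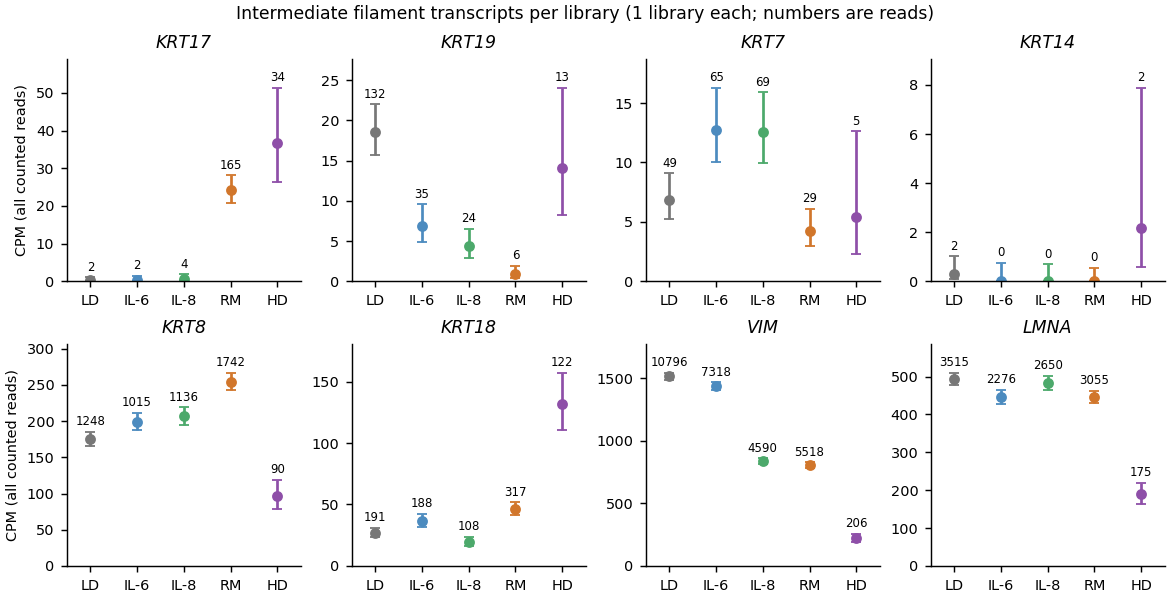
Reads per 1000000 counted (CPM, linear axes starting at 0) of 8 intermediate filament genes in the 5 libraries, 1 point per library with its 95% Wilson interval and the number of reads printed above. KRT17 stands at 24.1 CPM in RM and 36.7 CPM at HD against at most 0.728 CPM elsewhere, while KRT19 is at 0.877 CPM in RM and VIM is lowest in HD.

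KRT17 shares stretches of sequence with its neighbours in the type I keratin cluster, which matters for reads of 50 bases. The gene lies at chr17:41619441-41624842 on the minus strand (GRCh38, GENCODE 29), and its coding sequence was identical to that of KRT14 at 84.7% of 1296 aligned bases and to that of KRT16 at 79.3% of 1288. The first set below is the 60-base coding window in which the 3 genes were most alike, with 1 differing base, and the second is the window in which they were least alike, with 25. Capitals mark bases that differ between any of the 3, and sequences run 5′ to 3′ on the coding strand, from GENCODE 29. The first window spans coding bases 259 to 318 of KRT17, 358 to 417 of KRT16 and 352 to 411 of KRT14.
KRT17: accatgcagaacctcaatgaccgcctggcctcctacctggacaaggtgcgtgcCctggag
KRT16: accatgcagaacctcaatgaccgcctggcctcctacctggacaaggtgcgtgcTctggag
KRT14: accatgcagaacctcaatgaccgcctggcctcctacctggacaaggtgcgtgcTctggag
The second window spans coding bases 366 to 425 of KRT17, 465 to 524 of KRT16 and 459 to 518 of KRT14.
KRT17: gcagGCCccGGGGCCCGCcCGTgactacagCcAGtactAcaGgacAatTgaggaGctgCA
KRT16: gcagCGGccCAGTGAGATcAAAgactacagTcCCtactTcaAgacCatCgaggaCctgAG
KRT14: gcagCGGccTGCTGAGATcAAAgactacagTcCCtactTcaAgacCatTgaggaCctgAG

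A 50-base read that begins at the start of the first window misses its capital and is the same in all 3 genes, while any such read from the second window holds several differences. Over the whole KRT17 transcript of 1651 bases, 26 of 1602 windows of 50 bases (1.62%) occurred exactly in another gene listed in the files, KRT16 or KRT14. Counting any other annotated gene, 15.98% of the windows occurred elsewhere, mostly in KRT17 pseudogenes. In RM, beside 165 reads on KRT17, KRT14 had 0 and KRT16 had 1, and in HD, beside 34 reads on KRT17, they had 2 and 8. How reads shared with these genes or with the pseudogenes were assigned was not tested.

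KRT14, the basal type I keratin, and KRT5, its type II partner, were at or under the level that 3 reads mark. KRT14 had 2 reads in LD, 0 with IL-6, IL-8 and RM, and 2 in HD, and KRT5 had 0 reads in all 5 libraries. With the floor set at 3 reads, the 0 reads of KRT5 allow up to 0.439 CPM in RM and 3.24 CPM at HD, so at this depth a low level of KRT5 in HD was not detectable. KRT6A, KRT6B and KRT6C, the other usual type II partners of KRT17, were looked up after the values of KRT17 had been seen. All 3 had 0 reads in RM, where KRT17 had 165. In HD, KRT6A had 15, KRT6B had 49 and KRT6C had 0. NES, the progenitor filament nestin, had at most 1 read in any library, and KRT5 and NES were the 2 of the 10 genes that did not reach 1 TPM anywhere and were left out of the counts below.

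The remaining 8 genes were counted against LD. A gene was called changed when log2(TPM + 1) differed from LD by at least 1. In IL-6, 0 of 8 were higher and 1 was lower, KRT19, where 9.84% of all 21163 genes that reached 1 TPM in any library were higher and 7.47% lower. In IL-8 the counts were 0 higher and 1 lower, KRT19 again, against 7.99% and 16.4% of all genes. In RM they were 1 higher, KRT17, and 1 lower, KRT19, against 6.44% and 20.4%, and the KRT17 call is the contrast that chose it, so nothing is read from it. In HD 3 were higher (KRT17, KRT14, KRT18) and 3 lower (KRT8, VIM, LMNA), against 61.9% and 17.9%. At low density these shares of 8 genes are near those of all genes and no result about the filaments, and other scalings moved them, to 4 genes called in IL-8 on CPM without RNA5-8S5 and to 4 in RM under median-ratio scaling. The KRT14 call in HD rests on 2 reads against 2 and carries no fold. The median difference over the 21163 genes was 0 in each low density contrast and 1.86 in HD. That filter lets in genes on few HD reads. Among the 12899 genes with at least 10 reads in HD or LD, 48% were higher and 26.4% lower, with a median of 0.80. On CPM without RNA5-8S5 that median was 0.22, so a lowered gene in HD was no rare case.

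**Figure D2:**
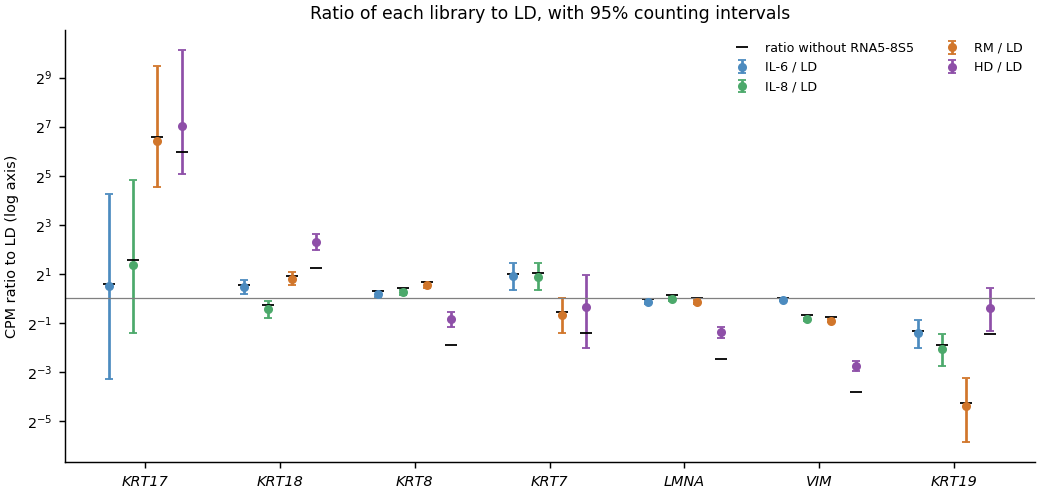
Ratio of CPM in each library to CPM in LD on a log axis for 7 intermediate filament genes, with 95% conditional exact intervals from the reads. Black dashes give the same ratio with RNA5-8S5 left out of the totals, and the line at a ratio of 1 marks no difference; KRT19 lies below it in IL-6, IL-8 and RM, KRT17 far above it in RM and HD, and only the HD points move far from their dashes.

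KRT19, a type I keratin of ducts and simple epithelia, was the one gene of the set that was called lower in every cytokine library. It had 132 reads in LD, 35 with IL-6, 24 with IL-8, 6 in RM and 13 at HD, or 27.6, 10.9, 6.55, 1.38 and 18.0 TPM. The lowest value was in RM. KRT17 was high in RM and also at HD, where KRT19 was above IL-6 and IL-8 in TPM. CPM in IL-6 was 0.370 of that in LD (95% conditional exact interval 0.248 to 0.541), in IL-8 0.236 (0.146 to 0.366) and in RM 0.0473 (0.0171 to 0.106). RM was also below each single cytokine, at 0.128 of IL-6 (0.0439 to 0.307) and 0.201 of IL-8 (0.0671 to 0.504). IL-6 and IL-8 themselves did not differ beyond counting error, with a ratio of 0.636 (0.362 to 1.10).

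KRT17 was high in RM and in HD, while KRT19 was lower in RM than in HD. KRT19 in HD was 15.99-fold above RM (95% conditional exact interval 5.67 to 51.3), and still 6.91-fold above (2.45 to 22.2) without RNA5-8S5. Against LD, KRT19 in HD was at 0.757 (0.393 to 1.34) with the ribosomal entry and at 0.360 (0.187 to 0.638) without it, so its place beside LD depended on that choice. Of the 50-base windows of KRT19, 1.79% occurred in another annotated gene and 0% in a listed one.

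KRT8 and KRT18, the type II and type I partners of simple epithelia, were the most abundant keratins among the 10 genes. KRT8 had 1248 reads in LD, 1015 with IL-6, 1136 with IL-8, 1742 in RM and 90 at HD, or 509, 602, 622, 732 and 210 TPM on the length-corrected scale. KRT18 had 191, 188, 108, 317 and 122 reads, or 99.7, 143, 76.0, 171 and 364 TPM. Both were higher in RM than in LD, under the threshold for a call but beyond counting error, with a CPM ratio of 1.45 for KRT8 (95% conditional exact interval 1.35 to 1.56) and 1.73 for KRT18 (1.44 to 2.08). Median-ratio scaling lifted these differences to 1.26 and 1.499 on the log2 scale, past the threshold.

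In HD the partners went apart. KRT8 was at 0.554 of LD in CPM (0.442 to 0.687) and KRT18 at 4.91 (3.88 to 6.19), or at 0.264 and 2.34 without RNA5-8S5. The log2 difference of KRT18, 1.86, was that of the median over all 21163 genes in HD. Genes with at least 10 reads in HD or LD had a median of 0.80. A share within the library shows the same without any scaling. KRT8 made up 86.7% of the reads on the pair in LD (95% Wilson interval 84.9 to 88.4%), 84.4% with IL-6, 91.3% with IL-8 (89.6 to 92.8%) and 84.6% in RM, against 42.5% in HD (36.0 to 49.2%). IL-8 was the low density library with the largest excess of KRT8, where KRT18 was at 0.733 of LD (0.573 to 0.933). That KRT18 value turned to a log2 difference of 0.06 above LD under median-ratio scaling.

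The overlap of these genes limits their separation. KRT8 (chr12:52897187-52949954, minus strand) and KRT18 (chr12:52948871-52952901, plus strand) overlap in the annotation on opposite strands, and the strand of the reads is not stated. Of the 50-base windows of the KRT18 transcript 22.9% occurred in another listed gene, nearly all of them in KRT8, and 41.3% of those of KRT8 occurred in some other annotated gene, mostly its many pseudogenes. How the quantification split such reads was not tested.

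KRT7, a type II keratin of glandular epithelia, was higher with each single cytokine than in LD and than in RM. It had 49 reads in LD, 65 with IL-6, 69 with IL-8, 29 in RM and 5 at HD, or 21.2, 40.9, 40.1, 12.5 and 12.8 TPM. The IL-6 and IL-8 libraries were 1.85-fold (95% conditional exact interval 1.26 to 2.74) and 1.83-fold (1.25 to 2.69) above LD in CPM, just under the threshold with log2 differences of 0.92 and 0.89. RM was at 0.616 of LD (0.375 to 0.995), or 0.679 (0.414 to 1.10) without RNA5-8S5, and the log2 difference of −0.71 became −0.02 under median-ratio scaling. RM was at 0.332 of IL-6 (0.207 to 0.523) and 0.338 of IL-8 (0.211 to 0.528), the last both past the threshold. The 5 reads in HD left a ratio to LD of 0.784 with an interval from 0.244 to 1.96, and of 0.373 (0.116 to 0.932) without RNA5-8S5.

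Set side by side, KRT17 and KRT19 changed places between LD and RM in the order of the keratins of the list. KRT17 had been picked for its values in these libraries, so its move restates that choice. In LD the order by TPM was KRT8, KRT18, KRT19, KRT7 and KRT17. In RM it was KRT8, KRT18, KRT17, KRT7 and KRT19. At HD it was KRT18, KRT8, KRT17, KRT19 and KRT7, so KRT19 was not below KRT7 there. Among all 28 type I keratins, KRT17 had 0.464% of reads in LD (95% Wilson interval 0.127 to 1.68%), 0.667% with IL-6, 2.37% with IL-8 (0.924 to 5.93%), 29.9% in RM (26.3 to 33.9%) and 8.21% at HD (5.94 to 11.3%). KRT19 went from 30.6% in LD (26.5 to 35.1%) to 11.7% with IL-6, 14.2% with IL-8, 1.09% in RM (0.500 to 2.36%) and 3.14% at HD. KRT18 held 44.3 to 63.9% at low density and 29.5% in HD.

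KRT17 took a small share of all keratin reads even where it was high. Of the reads on all 54 keratins it took 2.61% in RM (95% Wilson interval 2.25 to 3.04%) and 3.995% at HD (2.87 to 5.53%), against 0.0300% in LD, 0.0391% with IL-6 and 0.0826% with IL-8. By TPM its share was 2.84% in RM and 6.77% at HD. Most keratin reads at low density fell on KRT81, a type II hair keratin that is not among the 10 genes. It had 4730 reads in LD, 3602 with IL-6, 3385 with IL-8, 3799 in RM and 149 at HD, which was 60.2 to 70.9% of keratin reads at low density and 17.5% in HD. KRT81 shares 42.1% of its 50-base windows with other listed genes, chiefly KRT86, whose own reads numbered 27 to 65 at low density and 0 in HD.

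**Figure D3:**
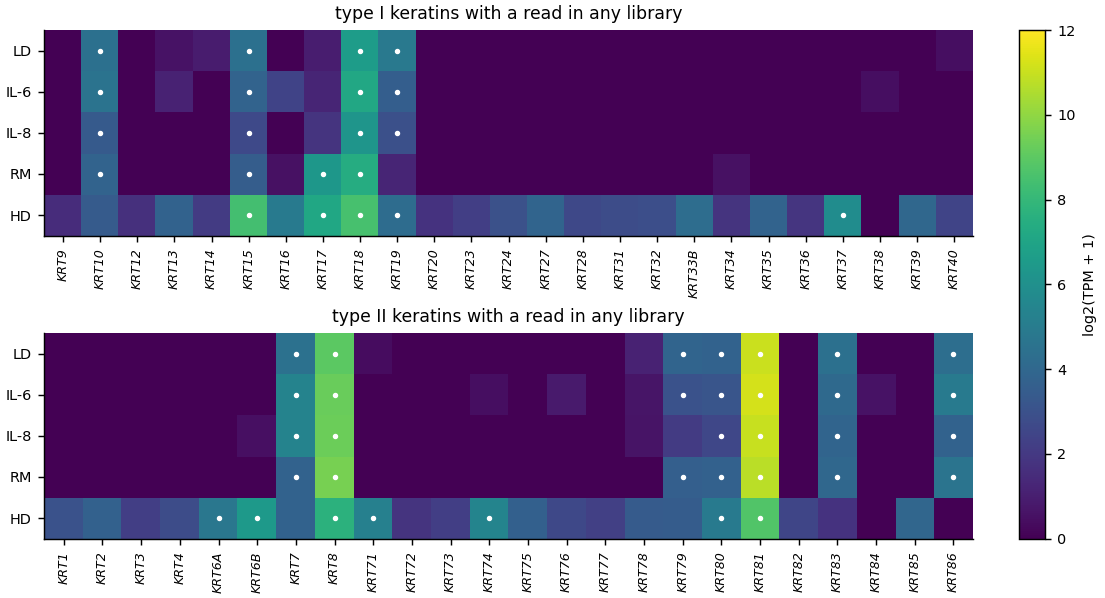
Heat map of log2(TPM + 1) for each type I and type II keratin with a read in any library, 1 row per library, with a white dot where at least 10 reads were counted. At low density the signal is held by few genes, led by KRT81 and KRT8, and KRT17 carries a dot only in RM and HD, whereas in HD faint values spread over most keratins on few reads.

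The wider keratin family was counted in the same way. At least 1 read fell on 17 of the 54 keratins in LD, 19 with IL-6, 14 with IL-8, 14 in RM and 46 at HD, while 10 to 12 had at least 10 reads in each library. Of all listed genes, 54.4, 55.5, 50.7, 49.5 and 74.0% had a read in these libraries, so HD was broader for genes at large too. Among keratins with at least 10 reads in RM or LD, 1 of 12 was higher in RM, KRT17, and 1 was lower, KRT19, where 10.1% and 34.9% of the 9777 genes with as many reads were. KRT17, with 2 reads in LD, met that minimum only through RM, and its call is the contrast that chose it, so nothing is read from it. In IL-8, 0 of 11 were higher and 5 lower (KRT80, KRT79, KRT10, KRT15 and KRT19), against 11.1% and 26.9%, and in IL-6, 0 of 11 were higher and 1 lower, against 10.5% and 10.7%. All genes with as many reads had a median difference of −0.43 in IL-8, and of −0.03 under median-ratio scaling. Whether the 5 keratins lower in IL-8 pass the threshold on that scale was not tested. In HD 9 of 17 were higher and 4 lower, against 48% and 26.4%. KRT17, KRT6A, KRT6B, KRT71, KRT74 and KRT37 had at most 2 reads in LD and met that minimum only through HD. These shares are near those of all genes and no result about the keratins. KRT15, a type I keratin of basal cells, had the most reads of the 54 keratins in HD, with 42, 19, 12, 23 and 162 reads in the 5 libraries. Type I chains made up 3.49 to 8.73% of keratin reads at low density and 48.6% in HD (45.3 to 52.0%). How far the breadth of HD shaped this share was not tested.

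VIM, the mesenchymal filament, had the highest TPM of the 10 genes in every library. It had 10796 reads in LD, 7318 with IL-6, 4590 with IL-8, 5518 in RM and 206 at HD, or 3676, 3627, 2098, 1941 and 413 TPM. LD and IL-6 stood high, IL-8 and RM in the middle and HD low. IL-6 was at 0.947 of LD in CPM (95% conditional exact interval 0.919 to 0.975) and at 1.01 without RNA5-8S5, while IL-8 was at 0.551 (0.532 to 0.571) and RM at 0.532 (0.515 to 0.550). The ratio of RM to IL-8 was 0.965 (0.928 to 1.00), and 0.939 (0.903 to 0.977) without RNA5-8S5, so whether these libraries differed beyond counting error depended on the scaling.

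On the log2(TPM + 1) scale VIM was −0.81 with IL-8 and −0.92 in RM relative to LD, both just short of a call. Genes with at least 10 reads had a median difference of −0.43 with IL-8 and −0.62 in RM, so the typical gene was lower there as well. With median-ratio scaling, which brought those medians to −0.03 and 0.02, VIM differed by −0.36 and −0.19. In HD VIM was at 0.147 of LD (0.127 to 0.168), or 0.0698 without RNA5-8S5, and −3.15 in log2 units.

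LMNA, which encodes lamins A and C, had 3515 reads in LD, 2276 with IL-6, 2650 with IL-8, 3055 in RM and 175 at HD, or 1012, 976, 1103, 849 and 307 TPM. At low density the ratios to LD stayed between 0.904 and 0.977 in CPM, and the RM ratio of 0.905 (0.862 to 0.950) became 0.997 (0.950 to 1.05) without RNA5-8S5. Its direction was not settled in RM, with a log2 difference of −0.25 that median-ratio scaling turned to 0.48, nor in IL-8, with 0.12 by TPM, −0.03 by CPM and 0.57 under median-ratio scaling. HD was at 0.383 of LD (0.327 to 0.445), and at 0.182 (0.156 to 0.212) without RNA5-8S5.

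The share of the cytoplasmic filament beside the nuclear one needs no scaling between libraries, and counted in reads it fell into 3 levels. VIM made up 75.4% of the reads on VIM and LMNA in LD (95% Wilson interval 74.7 to 76.1%) and 76.3% with IL-6 (75.4 to 77.1%). It was 63.4% with IL-8 (62.3 to 64.5%) and 64.4% in RM (63.3 to 65.4%), and 54.1% in HD (49.0 to 59.0%). IL-8 and RM, the low density libraries that received IL-8, had overlapping intervals below those of LD and IL-6. By TPM the shares were 65.5% with IL-8 and 69.6% in RM, so their closeness depended on the unit, and the single library per condition leaves the spread between cultures unknown. An antisense gene, VIM-AS1, overlaps VIM (chr10:17228259-17237593, plus strand), and 38.2% of VIM windows occurred in it or another annotated gene that is not listed in the files, while LMNA (chr1:156082573-156140089, plus strand) had no shared window.

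Over 69 intermediate filament genes, VIM held 49.6% of reads in LD (95% Wilson interval 48.9 to 50.3%), 48.0% with IL-6, 36.3% with IL-8, 35.9% in RM and 15.5% at HD (13.6 to 17.5%). The keratin share ran the other way, with 30.7% in LD, 33.5% with IL-6, 38.2% with IL-8, 41.1% in RM and 63.9% at HD. Keratins other than KRT81, KRT8, KRT18 and KRT17 held 2.31% in LD and 34.2% in HD. In HD 46 of the 54 keratins had a read, as did 74.0% of all listed genes. How far this breadth shaped the HD shares was not tested. LMNA held 13.1 to 20.9%. Reads summed to 21770, 15253, 12661, 15354 and 1332 over the 69 genes, so the HD shares rest on the fewest reads. In bulk RNA, fewer cells of a kind and less RNA per cell cannot be told apart.

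**Figure D4:**
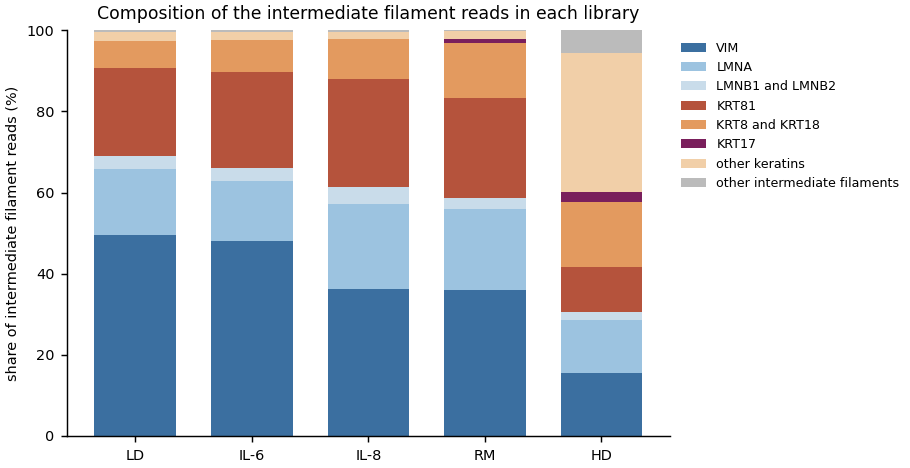
Stacked bars of the share of intermediate filament reads (%) taken by VIM, LMNA, the B-type lamins, KRT81, KRT8 with KRT18, KRT17, other keratins and other intermediate filaments in each library, over 69 genes. VIM holds 49.6% in LD, 35.9% in RM and 15.5% at HD, and in HD other keratins hold 34.2%.

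The remaining intermediate filaments were few. Of 12 other non-keratin filament genes, 4 to 7 had a read at low density and 11 in HD. LMNB2, a B-type lamin, led them with 680 reads in LD, 480 with IL-6, 513 with IL-8, 426 in RM and 21 at HD. In RM 0 of 4 genes with at least 10 reads were higher and 2 lower, the lamin LMNB1 (19 reads in LD, 2 in RM) and the vimentin partner SYNM (27 and 0), beside 10.1% and 34.9% of all genes with as many reads. Both were called lower in IL-8 too, and LMNB1 also in IL-6. NEFL, a neurofilament, had 57, 46, 57, 40 and 18 reads and passed no threshold against LD. GFAP, the astrocyte filament, had 18 reads in HD, 2 in RM and 0 elsewhere.

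Among 6 linker genes that tie intermediate filaments to junctions and to the other cytoskeletal systems, 0 of 4 measured were higher in RM and 2 were lower, beside 10.1% and 34.9% of all genes with as many reads. These were PLEC, plectin, with 786 reads in LD and 342 in RM, a CPM ratio of 0.453 (95% conditional exact interval 0.398 to 0.515), and DST, dystonin, with 782 and 394, a ratio of 0.524 (0.463 to 0.593). MACF1, which crosslinks actin and microtubules, had 642 reads in LD and 500 in RM and passed no threshold in any contrast with LD. The median difference of the 4 genes in RM was −0.97 beside −0.62 for all genes with as many reads. In IL-6 none of the 4 passed the threshold.

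Of 12 genes of lamin processing and the nuclear envelope found in the files, 1 of 11 measured was higher in RM and 2 were lower, at or below the 10.1% and 34.9% of all genes with as many reads. EMD, emerin, which binds lamin A at the inner nuclear membrane, had 24 reads in LD, 29 with IL-6, 53 with IL-8 and 70 in RM, a CPM ratio of RM to LD of 3.04 (95% conditional exact interval 1.89 to 5.05). ICMT, which methylates the ends of newly made lamins, and LBR, the lamin B receptor, were lower at 0.229 (0.115 to 0.423) and 0.156 (0.0297 to 0.527). EMD passed the threshold in IL-8 as well, at 2.86 (1.74 to 4.85), and EMD, ICMT and LBR are named here because their counts were few. BANF1, a chromatin-binding partner of emerin, was the most abundant of the list with 1318, 647, 589, 1398 and 12 reads. In HD 5 of 12 were higher (FNTA, TMPO, SUN1, SYNE1 and SYNE2) and 3 lower, beside 48% and 26.4% of all genes with as many reads. SYNE1 and TMPO, which link and anchor the nuclear envelope, had 194 and 52 reads there against at most 52 and 44 at low density.

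Genes with a profile like that of KRT17 were sought among the 4194 others with at least 10 reads in RM and at least 10 in HD, by the Euclidean distance between values of log2(TPM + 1) over the 5 libraries, each centred on its mean. The 5 nearest were TSPAN32 at a distance of 1.36, LILRB3 at 1.59, ULK4 at 1.79, C1orf213 at 1.80 and SKA1 at 1.80. None is an intermediate filament gene. LILRB3, a leukocyte receptor, had 6 reads in LD, 4 with IL-6, 8 with IL-8, 105 in RM and 47 at HD, and SKA1, a component of the spindle attachment to kinetochores, had 16, 8, 14, 152 and 88.

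Those left had fewer reads. TSPAN32 had reads only in RM (19) and HD (10), ULK4 had 1 or 2 reads in LD, IL-6 and IL-8 against 92 and 15, and C1orf213 had at most 1 against 98 and 10. Being near KRT17 here says only that the 5 values are alike, and 5 libraries leave room for many such matches. Among the 4195 genes with as many reads, KRT17 included, 3.65% were higher in both RM and HD than in all of the 3 other libraries by at least 1 log2 unit, and 1.51% of the 21163. Ranked by the gap between the lower of RM and HD and the highest of the other 3, KRT17 came first of those 4195, with 4.53 log2 units, and second of the 21163. KRT17 had been picked for this pattern, and the 4195 genes were selected by their reads in RM and HD. Its rank therefore restates that choice, and nothing is read from it.

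**Figure D5:**
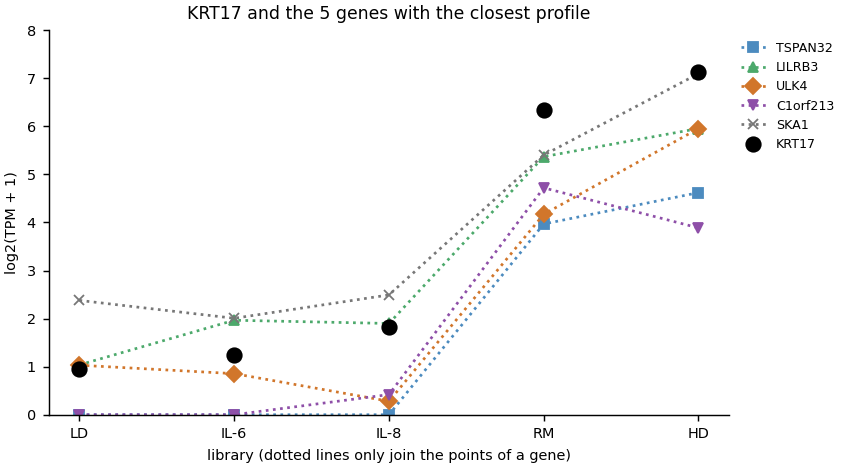
Log2(TPM + 1) of KRT17 (large black dots) and of the 5 genes with the closest centred profile in the 5 libraries, with dotted lines that only join the points of a gene. All 6 genes lie at 2.49 or less in LD, IL-6 and IL-8 and at 3.89 or more in RM and HD, and they differ in height because distance was measured after centring.

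The promoter windows given for the set were searched for the STAT motif TTCNNNGAA, which reads the same on both strands, because IL-6 signals through STAT3. RefSeq windows of 300 bases were given for 5 of the 10 genes, KRT5, KRT8, VIM, LMNA and NES, as 7 windows. None of the 7 held the motif, which 7.66% of all 35116 promoter windows did. At that share 7 windows are too few to tell a lack of the motif, so nothing is read from the count. KRT17, KRT7, KRT14, KRT18 and KRT19 had no entry.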

How the data were processed

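RNA had been sequenced in 50-base single-end reads after oligo-dT selection and amplification of the whole cDNA pool. The authors quantified genes with RSEM and deposited an expected count per gene and library, written as whole numbers and not normalized. The authors also deposited a TPM value per gene, corrected for effective transcript length, which was rescaled here to 1000000 per library. The submitters' processing notes name CASAVA 1.4, Bowtie2 2.3.1, RSEM 1.2.25 and the builds GRCh37 and hg19. The gene annotation, filters and strand setting are not given in the sources used here. Strand is unknown, so a gene and its antisense partner cannot be told apart.

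Differences are of log2(TPM + 1), which understates changes of low genes, over genes that reached 1 TPM in any of the 5 libraries, with a call at 1 log2 unit. The expected counts gave CPM with 95% Wilson intervals and ratios with 95% conditional exact (Clopper-Pearson) intervals. Reads carry no molecular identifiers, so these cover the counting of reads only. With 1 library per condition no test of a condition was possible, and no p-value is given. The members and gene lists were chosen with earlier results of these data known.

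Besides the 10 members, the genes named by rule were the 3 highest in TPM of each list apart from the cell type markers, the 5 other keratins with the most reads, the 5 genes nearest to KRT17 and RNA5-8S5. Others are said to be added after their values were seen or stand in a count of 5 or fewer. The cell type markers, KRT16 and VIM-AS1 were named outside this rule. CLDN4, INS and FNTB, from the lists, had no entry under these symbols, and unlisted per-sample columns numbered 0. Positions, transcripts and coding sequences are from GENCODE 29 (GRCh38), matched by symbol, and promoter windows from RefSeq. The cell-free collagen control is not analysed here. Scripts were tested on simulated data. The tools were matplotlib 3.10.9, Biopython 1.88, scipy 1.17.1, pandas 2.3.3 and numpy 2.4.6 under Python 3.11.15.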

Additional observations from a re-analysis of the deposited data

How the results depend on the processing

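Each of the 5 conditions was 1 library, so no library could be left out, and every value of HD rests on 926376 reads. No paired analysis was possible because each condition has 1 library and no result comes from a test. The gap of KRT17 kept its direction and stayed past 1 log2 unit under all 6 alternatives of scaling and pseudocount, from 3.50 to 4.93. The order of HD and RM for KRT17 did not, with −0.60 on CPM without RNA5-8S5 and −0.37 under median-ratio scaling against 0.52 to 0.79 otherwise; this comparison was added after seeing the data.

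The number of members changed relative to LD, 1 in IL-6, was 2 on TPM or CPM without RNA5-8S5 and with a pseudocount of 0.1, and 0 at a threshold of 2 log2 units. In IL-8 the number, also 1, was 3 on TPM without RNA5-8S5, 4 on CPM without it, 3 under median-ratio scaling, 3 with a pseudocount of 0.1 and 0 at the threshold of 2. The members added without RNA5-8S5 or with the pseudocount of 0.1 include KRT14, which has 2 reads in LD and 0 in both. In RM the number was 4 under median-ratio scaling in place of 2, and in HD 2 at the threshold of 2 in place of 6. The other alternatives, filters on low values among them, left these counts within 1.5 times.

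Shares computed from TPM in place of reads moved beyond their counting intervals as follows. The VIM share of all intermediate filaments was 47.8% (LD), 45.4% (IL-6), 34.1% (IL-8) and 34.1% (RM), and KRT17 held 6.77% of keratin TPM in HD. KRT8 held 83.6, 80.8, 89.1 and 81.1% of KRT8 and KRT18 for LD, IL-6, IL-8 and RM, and VIM 78.4, 78.8, 65.5 and 69.6% of VIM and LMNA. The order of the 4 low density libraries was kept in these 3 shares, while the distance between IL-8 and RM in the last one grew.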
